A study of Mus musculus with 105 samples.

Results

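The 44 collagen genes of a mouse poly(A) RNA-seq series are described here across 4 tumour lines with and without knockout of Setdb1, in cultured melanocytes and in 12 tissues. They are the protein-coding genes of the count matrix whose GENCODE symbol has the form Col, a number, a, a number, and they are 44 of the 53379 genes counted. The series holds 105 libraries from C57BL/6 mice or from lines of that strain. The tumour lines were B16 and B16OVA melanoma, MCAOVA (a line of MCA101 fibrosarcoma) and MC38 colon adenocarcinoma, all grown with puromycin at 2 µg/mL, the unedited cells included. Each line had a group labelled WT, a group labelled Ctrl, whose construct the labels do not describe, and a group labelled Setdb1KO, abbreviated KO below. There were 3 libraries per group, or 6 for B16OVA, and the 45 libraries held 17186211 to 50393024 counts each. The Setdb1 protein methylates lysine 9 of histone H3 and so silences genes and retroviral elements. The 5 melanocyte libraries came from cells grown for 2 to 3 weeks from newborn mice and lysed directly in the dish, with 19863405 to 30593253 counts each. The tissues were taken from WT female mice, whose age the labels do not give, with 4 libraries per tissue and 53591239 to 254103370 counts each. A further 7 libraries of unedited lines, with 1 library per name, entered no test. The labels do not say that libraries of a tumour group came from separate cultures, nor whether a knockout line was 1 clone, so the p-values measure the spread between these libraries, which may be technical.

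Collagens are triple helices of 3 chains with glycine in each repeat of the amino acid pattern Gly-X-Y, and they are the main structural proteins of the extracellular matrix. Fibril-forming collagens such as type I, built from the Col1a1 and Col1a2 chains, give tendon, bone and dermis their tensile strength, and are made mainly by fibroblasts and osteoblasts. Type IV collagens form the sheet-like network of basement membranes, and other classes link fibrils (FACIT collagens), form beaded microfibrils (type VI), anchor the epidermis (type VII), span the cell membrane (types XIII, XVII, XXIII and XXV) or carry heparan sulphate and release an angiogenesis inhibitor (type XVIII). By role the members comprised 11 fibrillar chains, 9 FACIT or FACIT-like chains, 6 basement membrane chains, 6 beaded filament chains, 4 transmembrane chains, 3 short chain network formers, 2 multiplexins, 1 anchoring fibril chain and 2 others. Counted from the coding sequences of the GENCODE transcripts, the longest unbroken run of codon triplets led by a glycine codon was 216 triplets in Col24a1, 217 in Col27a1 and longer in the 9 other fibrillar chains, against 39 to 66 in the basement membrane chains. Outside the fibrillar chains no run was above 113 triplets.

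The bases upstream of Col1a2 and Col18a1 are shown because these 2 genes, with Col1a1, were the collagens that passed the test of the knockout. The Col1a2 and Col18a1 stretches lie outside annotated exons and end at the first exon of a GENCODE transcript of the gene, and are written 5′ to 3′ on the strand of the gene. Capitals mark the GC box in all 3 sequences, which is GGGCGG or, read on the other strand, CCGCCC. The Col1a2 stretch is chr6:4505370-4505492 of mm10, plus strand, and ends 125 bases before the RefSeq start site, within an intron of another annotated transcript that starts further upstream. The Col18a1 stretch is chr10:77166549-77166698, minus strand, and lies 18 bases before the RefSeq start site. The Col4a1 and Col4a2 genes, on opposite strands, overlap by 22 bases at their starts, chr8:11312805-11312826, shown on the plus strand.
Col1a2: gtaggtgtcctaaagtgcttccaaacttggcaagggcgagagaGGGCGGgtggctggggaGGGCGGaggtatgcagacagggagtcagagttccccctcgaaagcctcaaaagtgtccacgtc
Col18a1: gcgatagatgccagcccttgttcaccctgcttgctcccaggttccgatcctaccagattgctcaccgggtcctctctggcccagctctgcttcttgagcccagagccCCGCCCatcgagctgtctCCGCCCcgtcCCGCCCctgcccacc
Col4a1 and Col4a2: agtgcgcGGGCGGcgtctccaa

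Motifs were searched on both strands in the 250 bases before each RefSeq start site, for which 38 windows of 35 members were listed. GGGCGG stood in 22 of the 38 windows (57.89%) and in 32.74% of all 32851 promoters. CCAAT stood in 13 of 38 (34.21%) against 33.85% of all promoters, and TATAAA in 5 of 38 (13.16%) against 12.37%. The members' windows held a median of 9.5 CpG dinucleotides and all promoters a median of 6.0, and GGGCGG itself holds a CpG. Besides Col4a1 and Col4a2, the start sites of 2 further pairs of type IV chains faced away from each other, 71 bases apart for Col4a4 and Col4a3 and 1308 bases apart for Col4a6 and Col4a5.

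Several libraries stood apart from their labels or their group. The measures did not use the collagen genes, except the fall of counts with transcript length, which was taken over all genes that passed the filter. Over 14056 genes, each of the 9 fitted libraries labelled MC38 had a higher Pearson r with an MCAOVA library than with any of the 3 single libraries named MC38, MC38-OVA and MC38-GFP. The r was 0.841 to 0.979 against MCAOVA and 0.843 to 0.882 against those 3 libraries. Krt8, a keratin of simple epithelia, stood at 242 to 1009 CPM (counts-per-million) in the 9 libraries, at 557 to 986 CPM in MCAOVA and at no more than 1.77 CPM in the 3 single libraries. The intestinal genes Cdx2, Epcam, Cdh1 and Vil1 were at or near 0 in the 9 and in the 3 single libraries alike. From the r and the Krt8 values, the group is called the libraries labelled MC38. Setdb1 itself fell in KO in B16 (mean 17.1 against 62.2 CPM in Ctrl), B16OVA (33.5 against 70.4) and MCAOVA (27.9 against 68.0), with edgeR adjusted p of 9.8e-05, 0.00022 and 0.0075. In B16OVA the groups overlapped, with Ctrl library 2 at 21.1 CPM and the KO libraries at 15.6 to 49.9 CPM. The other B16OVA Ctrl libraries stood at 59.1 to 99.4 CPM. In the libraries labelled MC38 Setdb1 stood at 60.05, 85.3 and 74.1 CPM in KO, at 54.9, 123 and 125 CPM in Ctrl and at 115, 121 and 133 CPM in WT. All 3 KO libraries lay below the 3 WT libraries and below Ctrl libraries 2 and 3, and Ctrl library 1, at 54.9 CPM, lay below all of KO. The log2 fold of KO over Ctrl was -0.52 (edgeR adjusted p = 1), and it was -0.78 without the libraries of low length slope described next, Ctrl library 1 among them (adjusted p = 0.097), and -0.80 against WT (adjusted p = 0.47), so it did not pass in any of the 3. Reads from an edited transcript can still be counted. In 7 tumour libraries the counts fell with transcript length more steeply than in the rest, Ctrl library 1 of those labelled MC38 among them. Among tissues, ovary library 4 had r of 0.911 to 0.942 with the other ovary libraries, whereas those had a median r of 0.982 to 0.992 with their group.

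In the libraries labelled MC38, both chains of type I collagen were higher in the libraries labelled KO, in which Setdb1 was below WT and 2 of the 3 Ctrl libraries without passing the test. Col1a1, the alpha 1 chain (chr11:94936224-94953042, plus strand), stood at 0.71, 0.44 and 0.44 CPM in WT, at 0.91, 0.72 and 1.01 CPM in Ctrl and at 10.11, 9.08 and 5.64 CPM in KO. Col1a2, the alpha 2 chain (chr6:4504814-4541544, plus strand), stood at 1.71, 1.07 and 0.55 CPM in WT, at 6.37, 4.25 and 3.72 CPM in Ctrl and at 79.3, 59.9 and 33.2 CPM in KO. All 3 KO libraries lay above all 6 others for both genes, and for Col1a2 the 3 Ctrl libraries also lay above the 3 WT libraries. The log2 fold of KO over Ctrl was 3.15 (SE 0.49, edgeR quasi-likelihood adjusted p = 0.00024) for Col1a1 and 3.50 (SE 0.72, adjusted p = 0.0088) for Col1a2. Even so the 2 genes were far below their mean level in skin, which was 3355 CPM for Col1a1 and 4319 CPM for Col1a2. These 2 were the only members of 32 tested that were called higher in that comparison, against 0.464% of all 16809 genes, and none was called lower, against 0% of all genes. The call of Col1a2 was lost without Ctrl library 2 (adjusted p = 0.12), Ctrl library 3 (0.13) or KO library 1 (0.093), while that of Col1a1 held without any 1 library (highest adjusted p 0.0081). When the 6 KO and Ctrl libraries were fitted alone, which leaves fewer libraries to estimate the spread, neither passed (adjusted p = 0.059 for both).

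The 2 fibrillar chains that stood highest in these libraries did not separate the groups. Col5a1, a chain of the minor fibrillar type V collagen, stood at 187, 116 and 126 CPM in WT, at 58.5, 115 and 164 CPM in Ctrl and at 106, 131 and 118 CPM in KO. Col3a1, the homotrimeric type III chain that is often laid down with type I, stood at 175, 143 and 116 CPM in WT, at 84.4, 135 and 137 CPM in Ctrl and at 123, 141 and 114 CPM in KO of the libraries labelled MC38, so that the 3 groups overlapped for both genes. The Col1a1 to Col3a1 ratio per kilobase of exon was 0.01 ± 0.004 (SD, n = 3) in Ctrl and 0.10 ± 0.02 in KO. In those KO libraries Col1a2 exceeded Col1a1 per kilobase, with a Col1a1 to Col1a2 ratio of 0.28 ± 0.04, against 0.37 ± 0.13 in Ctrl and 1.02 ± 0.41 in WT. Markers of fibroblasts did not separate the groups: the sum of 8 fibroblast genes was 141 to 277 CPM in WT, 122 to 167 in Ctrl and 123 to 187 in KO, with 4 of the 8 genes at a mean of 1 CPM or more in each group.

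Col1a1 and Col1a2 were not called in the remaining lines, and a difference from the libraries labelled MC38 passed against the melanomas only. In B16 and B16OVA the groups overlapped for both genes, and neither was called. MCAOVA libraries held at most 0.14 CPM of Col1a2, with 4 of them at 0, so little can be said of Col1a2 in that line. The difference between lines was tested as the KO effect in the libraries labelled MC38 minus that in another line, so that the same 6 libraries enter each of these tests. For Col1a1 it was 3.79 on the log2 scale against B16 (SE 0.66, edgeR adjusted p = 0.0045) and 3.02 against B16OVA (SE 0.57, adjusted p = 0.0069). For Col1a2 it was 4.41 against B16OVA (SE 0.85, adjusted p = 0.0071) and 3.91 against B16 (adjusted p = 0.10), the latter passing with the library sets as a block (adjusted p = 0.0020). Against MCAOVA neither difference passed (2.06 and 1.96, adjusted p = 1 for both). Of all genes, 0.196% differed in the KO effect from B16, 0.262% from B16OVA and 0.0238% from MCAOVA. Without Ctrl library 2 of those labelled MC38 the differences from B16OVA no longer passed, at adjusted p of 0.059 for Col1a1 and 0.067 for Col1a2, and without Ctrl library 3 that of Col1a2 did not (0.068).

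**Figure D1:**
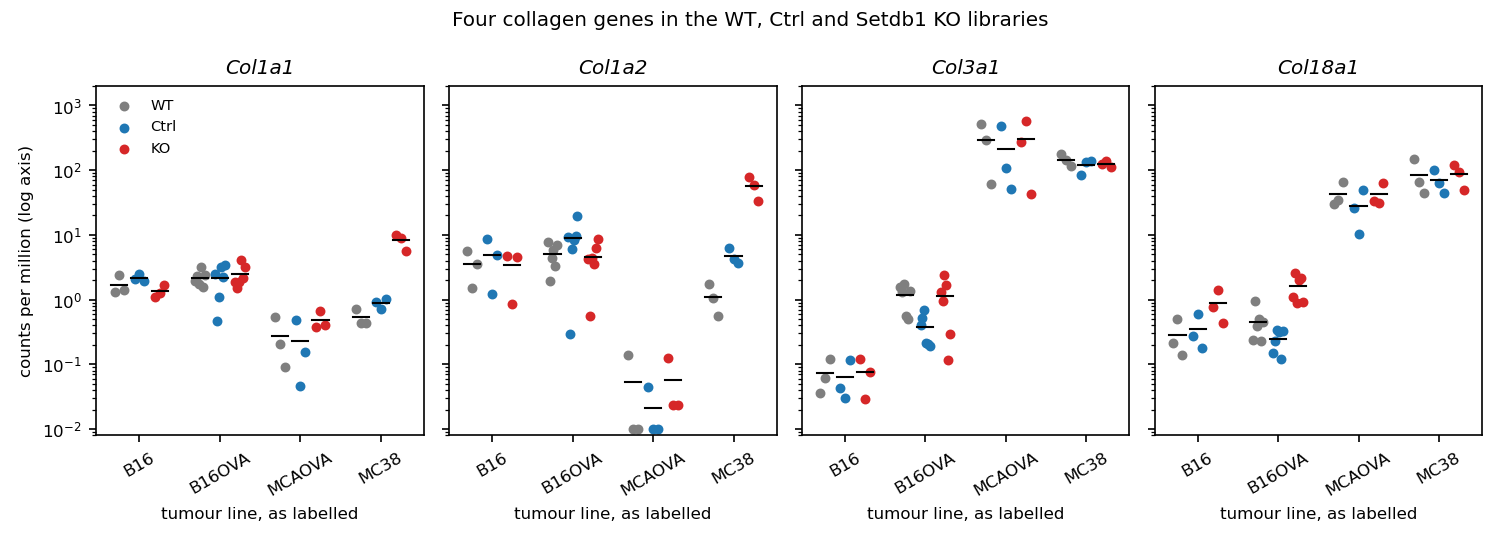
CPM of Col1a1, Col1a2, Col3a1 and Col18a1 (log axis) in each WT, Ctrl and KO library of the 4 tumour lines; each point is a library, black lines are group means and values of 0 are drawn at 0.01. The 3 KO libraries labelled MC38 lie above all other libraries of that label for Col1a1 and Col1a2, and the 6 B16OVA KO libraries lie above the 6 Ctrl libraries for Col18a1.

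In B16OVA the collagen that rose in KO was Col18a1, the multiplexin of epithelial and vascular basement membranes whose C-terminal fragment is endostatin. It stood at 0.149, 0.232, 0.341, 0.321, 0.119 and 0.327 CPM in the Ctrl libraries and at 1.08, 2.60, 0.886, 2.03, 2.13 and 0.917 CPM in the KO libraries. The lowest KO library lay above the highest Ctrl library, although 1 WT library, at 0.948 CPM, reached into the KO range. The log2 fold was 2.54 (SE 0.44, edgeR adjusted p = 0.00031), and leaving out any 1 of the 12 libraries kept the call (highest adjusted p 0.0024). It was the only member of 32 called higher in B16OVA, where 0.994% of all genes were, and no member was called lower, against 0.0595% of all genes. With the library sets as a block 2 members were called, Col18a1 and the hypertrophic cartilage chain Col10a1 (log2 fold 1.42, adjusted p = 0.029, against 0.28 without the block). In B16 the same gene stood at 0.277, 0.600 and 0.178 CPM in Ctrl and at 0.769, 1.43 and 0.430 CPM in KO, which did not pass (log2 fold 1.39, edgeR adjusted p = 1, also with the library sets as a block). The B16 groups overlapped, but within each of the 3 library sets the KO library was above the Ctrl library, and the difference in this effect between B16 and B16OVA was not tested. Both melanomas remained far below the 43.7 to 147 CPM of the libraries labelled MC38, whose 3 groups overlapped. Slc19a1, a folate transporter gene, overlaps Col18a1 on the opposite strand. The kit was stranded, but how the counting treated strand is not given in the sources used here, so reads of the 2 genes may have been shared.

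Without the block, no other member was called for the knockout in any line. The lack of a call does not show that a gene did not move. In B16 no member was called, with 2 at an unadjusted p under 0.05 by edgeR (2.64% of all genes) and none called by DESeq2, against 0.66% of genes called higher and 0.0297% lower. In MCAOVA no member was called either, with none at an unadjusted p under 0.05 (5.1% of all genes) and none called by DESeq2, against 0.339% of genes higher and 0.00595% lower. The median log2 fold of the 32 members was 0.04 in B16, 0.25 in B16OVA, 0.48 in MCAOVA and 0.06 in the libraries labelled MC38, where the medians over all genes were 0.00, -0.01, 0.01 and -0.01. The folds were above 0 for 25 of 32 members in B16OVA, against 48.4% of all genes, and for 24 of 32 in MCAOVA, against 51.1%. With the called members included, 5 of 32 were at an unadjusted p under 0.05 by edgeR in B16OVA (7.38% of all genes). In the libraries labelled MC38, 4 of 32 were (2.67%). MCAOVA libraries differed widely within groups: Col3a1 stood at 485, 109 and 51.4 CPM in Ctrl and at 272, 579 and 43.1 CPM in KO, with the library of the same set lowest in both groups. Col6a1, a beaded filament chain, stood at no more than 0.149 CPM in Ctrl and 0.626 CPM in KO of B16OVA and did not pass. The 12 members left out for low counts were Col4a3, Col4a6, Col6a5, Col6a6, Col11a1, Col13a1, Col19a1, Col22a1, Col24a1, Col25a1, Col26a1 and Col28a1.

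**Figure D2:**
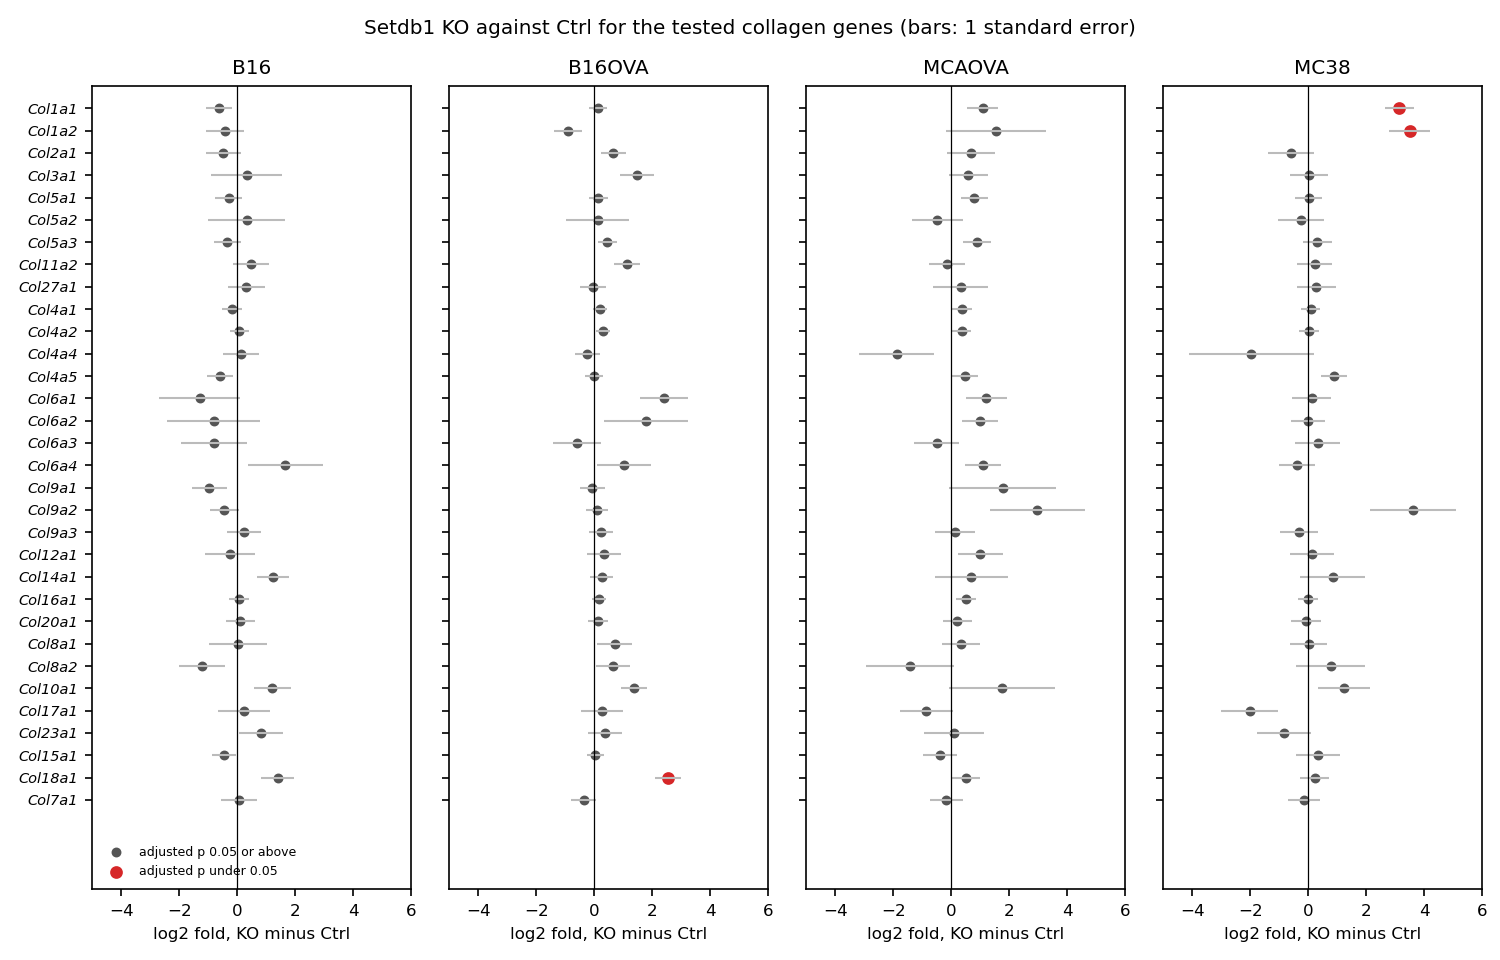
Log2 fold of KO over Ctrl (x axis) for the tested members (y axis) in each of the 4 tumour lines; points are edgeR estimates, bars span 1 standard error either side, red points have adjusted p under 0.05, and genes without counts in either group are not drawn. Col1a1 and Col1a2 in the libraries labelled MC38 and Col18a1 in B16OVA are the 3 red points.

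Between Ctrl and WT, neither of which is labelled as a Setdb1 knockout, no member was called in any line by edgeR or by DESeq2, against 0% of all genes in each of the 4 lines. At an unadjusted p under 0.05 there were 3 of 32 members in B16OVA (3.75% of all genes), 3 in the libraries labelled MC38 (2.07%) and none in B16 (0.619%) or MCAOVA (1.77%). The median log2 fold of the members was 0.07 in B16, -0.22 in B16OVA, -0.26 in MCAOVA and -0.15 in the libraries labelled MC38. The Ctrl libraries serve in both this contrast and that of the knockout, so a low Ctrl group moves the 2 in opposite directions.

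Among the listed genes that act on collagen, 1 was called in a KO contrast. Among the 25 tested genes of collagen modification and folding (prolyl and lysyl hydroxylases, the chaperone Serpinh1, secretion factors), Colgalt2 alone was called in a KO contrast, in B16 and in B16OVA. Colgalt2 encodes a transferase that adds galactose to hydroxylysine of collagen. In B16 it stood at 0.021, 0.030 and 0.030 CPM in Ctrl and at 4.94, 2.45 and 3.47 CPM in KO (edgeR adjusted p = 4.6e-06), and as each Ctrl value is 1 count no fold is given. In B16OVA it stood at 0 to 0.178 CPM in Ctrl and at 2.37, 1.06, 1.47, 0.995, 1.07 and 1.27 CPM in KO (adjusted p = 1.3e-05). The groups did not overlap in either melanoma, and the gene was at 0 in all 9 libraries labelled MC38 and at no more than 0.046 CPM in MCAOVA. None of the 9 tested genes of procollagen processing and crosslinking was called in any line, nor any of 15 collagen-binding matrix proteins, 7 collagen receptors, 9 genes of collagen breakdown or 16 genes of TGF-beta signalling. In the libraries labelled MC38 the median log2 folds of these 6 lists, in the order given, were -0.06, -0.09, -0.14, 0.15, -0.10 and 0.11. The largest medians were in MCAOVA, at 0.59 for the matrix proteins and 0.53 for the receptors, where the median over all genes was 0.01. There 13 of the 15 matrix proteins and 6 of the 7 receptors had folds above 0. The nearest tested genes on either side of Col1a1 (Xylt2 and Mrpl27, Ppp1r9b and Samd14), of Col1a2 (Bet1 and Gng11, Casd1 and Gm44432) and of Col18a1, and Slc19a1, were not called in any line.

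Before any knockout, the tumour lines differed in which collagens they made. Among the 44 members, 20 reached a mean of 1 CPM in B16OVA WT, 17 in B16 WT, 16 in MCAOVA WT, 18 in the WT libraries labelled MC38 and 33 in melanocytes. Per kilobase of exon the type IV chains led in 3 of the 4 lines: Col4a1 stood at 9.89 CPM per kb in B16OVA, 52.8 in MCAOVA and 79.6 in the libraries labelled MC38, with Col4a2 next at 8.01, 40.0 and 56.3. In B16 the FACIT-like chain Col16a1 led at 6.57 CPM per kb, ahead of Col4a1 at 6.01 and Col4a2 at 5.30. Next came Col5a3, a minor fibrillar chain, in B16OVA (7.36), Col3a1 in MCAOVA (29.6) and Col7a1, the anchoring fibril chain, in the libraries labelled MC38 (27.7). All members together took 0.0376% of the counts in B16OVA WT, 0.0265% in B16 WT, 0.150% in MCAOVA WT and 0.190% in the WT libraries labelled MC38.

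B16OVA was tested against the lines with which it shared a code in the library names. Against the WT libraries labelled MC38, 11 of 38 tested members were called higher and 10 lower, where 22.9% and 13.8% of all 16929 genes were. Col7a1 stood at 3.46, 0.272 and 7.21 CPM in the 3 B16OVA libraries of that code and at 309.1, 236.3 and 308.6 CPM in the WT libraries labelled MC38. Col15a1, a multiplexin of basement membrane zones, showed the opposite order, at 44.5, 12.6 and 42.9 CPM in B16OVA and no more than 0.236 CPM in the libraries labelled MC38. Neither pair of groups overlapped, and the log2 folds were -6.27 (SE 1.02) for Col7a1 and 7.64 (SE 0.74) for Col15a1. Against MCAOVA, 13 members were called higher and 12 lower, where 17.1% and 14.8% of all genes were. The type VI chains made up part of the lower calls: Col6a1 stood at 0.682, 0.759 and 0.705 CPM in B16OVA and at 65.9, 78.0 and 22.8 CPM in MCAOVA (log2 fold -6.35, SE 1.30). Col9a1, a FACIT chain of cartilage, was at 1.05 to 3.403 CPM in the 6 B16OVA WT libraries, at 0.869 to 2.49 CPM in B16 and at 0 in all WT libraries of the 2 other lines. Against the parental B16 no member was called by edgeR or by DESeq2, with 3 of 38 at an unadjusted p under 0.05 (0.543% of all genes), where 0.00591% of all genes were called higher and 0% lower.

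The 5 melanocyte libraries held more collagen RNA than B16OVA, and differed strongly among themselves. The test used only the 3 B16OVA WT libraries that share a code in their names with the melanocyte libraries. Against melanocytes, 25 of 38 tested members were called lower in B16OVA and 3 higher, where 21.8% and 20.4% of all genes were, and the members' median log2 fold was -3.93. The 3 higher members were Col2a1, Col9a1 and Col9a3, which in cartilage belong to type II and type IX collagen. They were low in both groups, with melanocyte means of 0.06, 0.03 and 0.57 CPM against 1.29, 2.13 and 2.11 CPM over the 6 B16OVA WT libraries, of which 3 entered the test. Col1a1 stood at 5879, 814, 216, 446 and 75.9 CPM in melanocyte libraries 1 to 5, whose numbers only name them. Col1a2 stood at 6739, 838, 345.8, 411 and 37.7 CPM, and Col3a1 at 3251, 374, 37.3, 270 and 19.9 CPM. Library 1 was highest and library 5 lowest for all 3, and of the 33 members at a mean of 1 CPM or more, 24 were highest in library 1 and 13 lowest in library 5. The members' share of all counts was 3.46, 0.572, 0.313, 0.361 and 0.209% in libraries 1 to 5. The basement membrane chains varied less: Col4a1 stood at 2159, 471, 661, 411 and 540 CPM and Col4a2 at 1980, 485, 635, 428 and 649 CPM. The order was otherwise for Col15a1, lowest in library 1 at 14.8 CPM and at 84.3, 32.7, 34.2 and 79.1 CPM in the others, and for the hemidesmosomal Col17a1, at 7.06 CPM in library 5 and no more than 0.91 CPM in the others.

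Markers of some other cell types moved with the melanocyte values. The sum of 8 fibroblast markers was 2947, 665, 499, 380 and 79.6 CPM in libraries 1 to 5, and that of the smooth muscle genes Acta2 and Myh11 was 3084, 570, 375, 447 and 135 CPM. The 7 melanocyte markers summed to 12719 CPM in library 1 and to 46360 to 66415 CPM in the others, with all 7 above 1 CPM in each library. Keratinocyte markers summed to 35.9 CPM in library 5, the library with Col17a1, and to at most 4.28 CPM elsewhere. The endothelial marker sum did not follow type I collagen: the 5 genes summed to 8.36, 7.98, 29.98, 9.21 and 26.1 CPM in libraries 1 to 5, with Pecam1, Cdh5 and Esam under 1 CPM in each. Lum, a fibroblast marker, and Myh11 were under 1 CPM in libraries 3 and 5. The part these cells play in the collagen levels was not tested, and in bulk samples fewer cells of a type and less RNA per cell cannot be told apart. Without library 1, 6 members in place of 3 were called higher in B16OVA than in melanocytes, Col5a3, Col9a2 and Col20a1 in addition, and 23 to 25 lower under the removal of any 1 library.

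**Figure D3:**
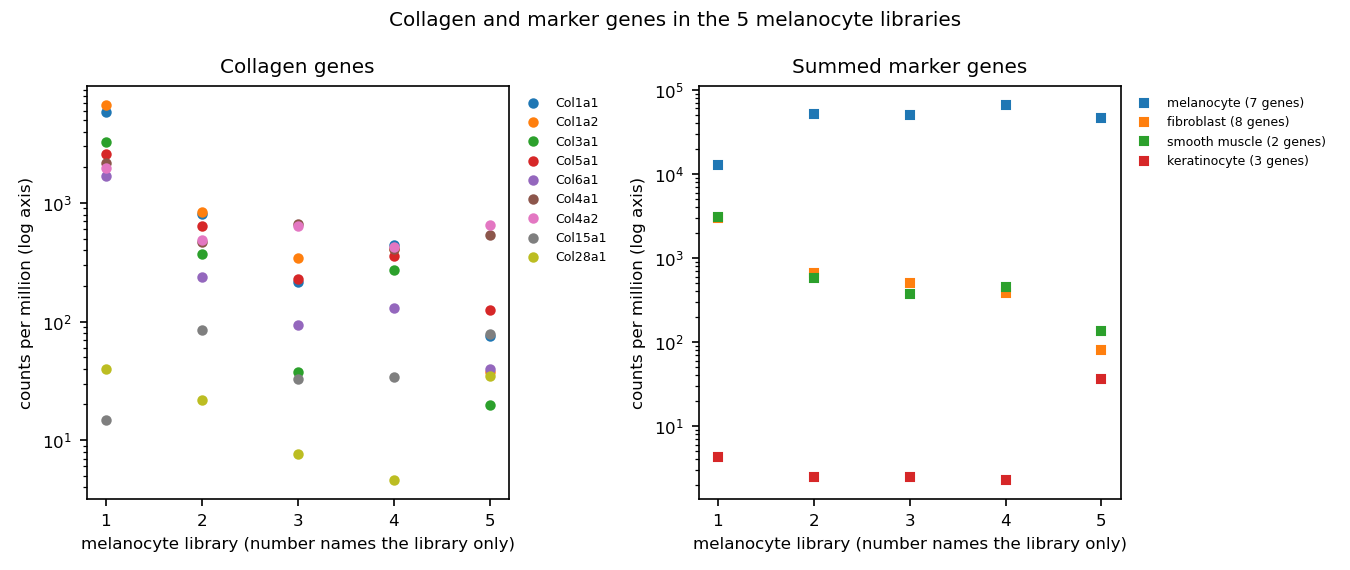
CPM (log axes) of 9 collagen genes (left) and summed marker genes of 4 cell types (right) in each of the 5 melanocyte libraries, whose numbers only name them. Library 1 holds the most Col1a1 (5879 CPM) and the fewest melanocyte marker counts (12719 CPM), and library 5 the least Col1a1 (75.9 CPM).

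In the 12 tissues all 44 members passed the filter, and 41 were called highest in 1 tissue, that is, their highest mean was in that tissue and exceeded the mean of the 11 others by 2 or more on the log2 scale at an adjusted p below 0.05. Of all 26242 genes, 59.3% were called so in some tissue. Skin took 23 of these calls, which is 52.3% of the 44 members, against 5.56% of all genes. The other calls were 6 in ovary (4.84% of all genes), 5 in lung (4.46%), 3 in brain (12.2%), 2 in kidney (3.89%), 1 in liver (4.34%) and 1 in LN, the lymph node (3.08%). Thymus (6.67%), colon (4.26%), heart (4.06%), spleen (4%) and stomach (1.92%) had none. The 3 members without a call were Col5a3, Col14a1 and Col20a1. Members' counts made up 2.05 ± 0.41% of all counts in skin (SD, n = 4), 1.03 ± 0.25% in ovary, 0.818 ± 0.059% in lung and 0.0781 ± 0.0057% in brain.

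The skin calls included fibrillar, epidermal and cartilage collagens, and also 3 beaded filament and 3 short chain network chains. The 9 fibrillar chains called there included Col1a1, at 599, 400, 351 and 695 CPM per kb of exon in the 4 libraries against 78.4 to 301.2 in ovary, the next tissue. Col17a1, the transmembrane collagen of the hemidesmosomes that fix basal keratinocytes to the basement membrane, gave the widest margin, at 371, 388, 399 and 400 CPM per kb against 2.29 to 3.14 in lung. Its log2 fold over the mean of the other tissues was 10.18 (SE 0.19). Per kilobase Col17a1 ranked second among the skin collagens, between Col1a1 (511 ± 163) and Col3a1 (358 ± 119). Per kilobase of coding sequence it stood at 530.5 ± 18.1, below Col1a2 (1049 ± 254), Col3a1 (801 ± 266) and Col1a1 (770 ± 245). Col7a1, which anchors the same membrane to the dermis, stood at 39.3, 33.3, 35.3 and 45.3 CPM per kb, and next came spleen at 3.99 to 4.92. Chains known from cartilage were among the skin calls: Col9a1, Col9a3, the short chain Col10a1, and Col2a1, Col11a1 and Col11a2, which belong to the 9 fibrillar chains. Col10a1, the chain of hypertrophic cartilage, stood at 4.25, 5.17, 7.05 and 5.28 CPM per kb there and at no more than 0.847 in lung, the next tissue, where 3 of 4 libraries were under 0.03. All 4 cartilage markers (Acan, Sox9, Comp and Matn3) were at 1 CPM or more in skin, with sums of 455 to 558 CPM, and 3 keratinocyte markers summed to 19212 to 22749 CPM. The sum of 8 fibroblast markers was 4087 to 4810 CPM in skin and at most 2479 CPM in any other tissue library. The part of these cells in the skin calls was not tested.

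Of the 6 basement membrane chains, 3 were called in lung, 2 in kidney and 1, Col4a6, in ovary (log2 fold 2.71, SE 0.35). Col4a1 and Col4a2, which form the network found in nearly all basement membranes, were highest in lung, with Col4a1 at 193, 216, 211 and 222 CPM per kb and Col4a2 at 210.4 ± 15.02. Ovary came next for both, at 131 to 181 for Col4a1. Col4a3 and Col4a4, chains of the glomerular and alveolar basement membrane that are mutated in Alport syndrome, were called in kidney but stood nearly as high in lung. Col4a3 was at 30.3, 38.5, 43.9 and 44.9 CPM per kb in kidney and at 33.1, 38.4, 33.0 and 36.8 in lung, so the 2 tissues overlapped. Col4a4 overlapped in the same way, at 25.02 to 34.1 in kidney and 23.7 to 27.2 in lung. Relative to Col4a1, Col4a3 differed between these tissues: the Col4a3 to Col4a1 ratio was 0.71 ± 0.18 in kidney and 0.17 ± 0.01 in lung. Their partner Col4a5 was called in lung at 25.5 ± 0.383 CPM per kb. A pair of transmembrane collagens were also called in lung, Col13a1 at 26.6 to 29.0 CPM per kb, against 1.47 to 2.73 in stomach, and Col23a1 at 16.4 to 20.4, against 8.19 to 9.26 in skin.

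Liver was the tissue of Col18a1. The gene stood at 168, 177, 193 and 194 CPM per kb in liver, against 35.6, 31.8, 32.5 and 41.5 in kidney, and the 2 multiplexins made up 76.8% of the summed collagen level per kb in liver. The log2 fold over the mean of the other tissues was 5.21 (SE 0.17, edgeR adjusted p = 1.1e-26). The next liver collagens, Col14a1 and Col4a1, stood at 9.2 and 8.9 CPM per kb. Col18a1 also led the collagens of brain, at 15.6, 10.9, 9.70 and 20.4 CPM per kb.

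Some ovary and brain calls were of members whose levels differed widely between the libraries of the tissue. In both tissues library 4 carried the code D804 in its name and libraries 1 to 3 the code D812, so library and code cannot be told apart. Col6a4, a type VI chain, was even in ovary at 34.6, 31.3, 23.3 and 31.5 CPM per kb, against 3.54 to 4.77 in LN. Col15a1 stood at 82.7, 50.2 and 67.0 CPM per kb in ovary libraries 1 to 3 and at 15.6 in library 4, below the 17.7 to 37.9 of heart. Col5a3, which was not called, showed the same split, at 56.7, 12.8 and 26.01 in libraries 1 to 3 and at 0.71 in library 4. Library 4 also held 2548 CPM of 3 ovary markers where the others held 256 to 504, and 1320 CPM of smooth muscle genes, the lowest of the 4. With replicate 4 of every tissue left out, all 41 calls remained and Col5a3 was called in ovary as well. The same held with the 8 tissue libraries of code D804 left out. Col9a2 was nearly level between ovary (4.36 to 21.7) and skin (10.9 to 16.7) and changed to skin without replicate 2. In brain, the neuronal transmembrane collagen Col25a1 stood at 1.01, 2.37, 2.67 and 0.128 CPM per kb and Col24a1 at 1.09, 0.856, 1.97 and 0.106, with library 4 lowest for both. Col19a1, a FACIT-like chain, was even in brain, at 0.517, 0.762, 0.809 and 0.581 against 0.0392 to 0.0912 in thymus. Col6a5 was called in LN at 2.84, 4.09, 2.99 and 3.25 CPM per kb, against 1.26 to 2.05 in ovary.

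**Figure D4:**
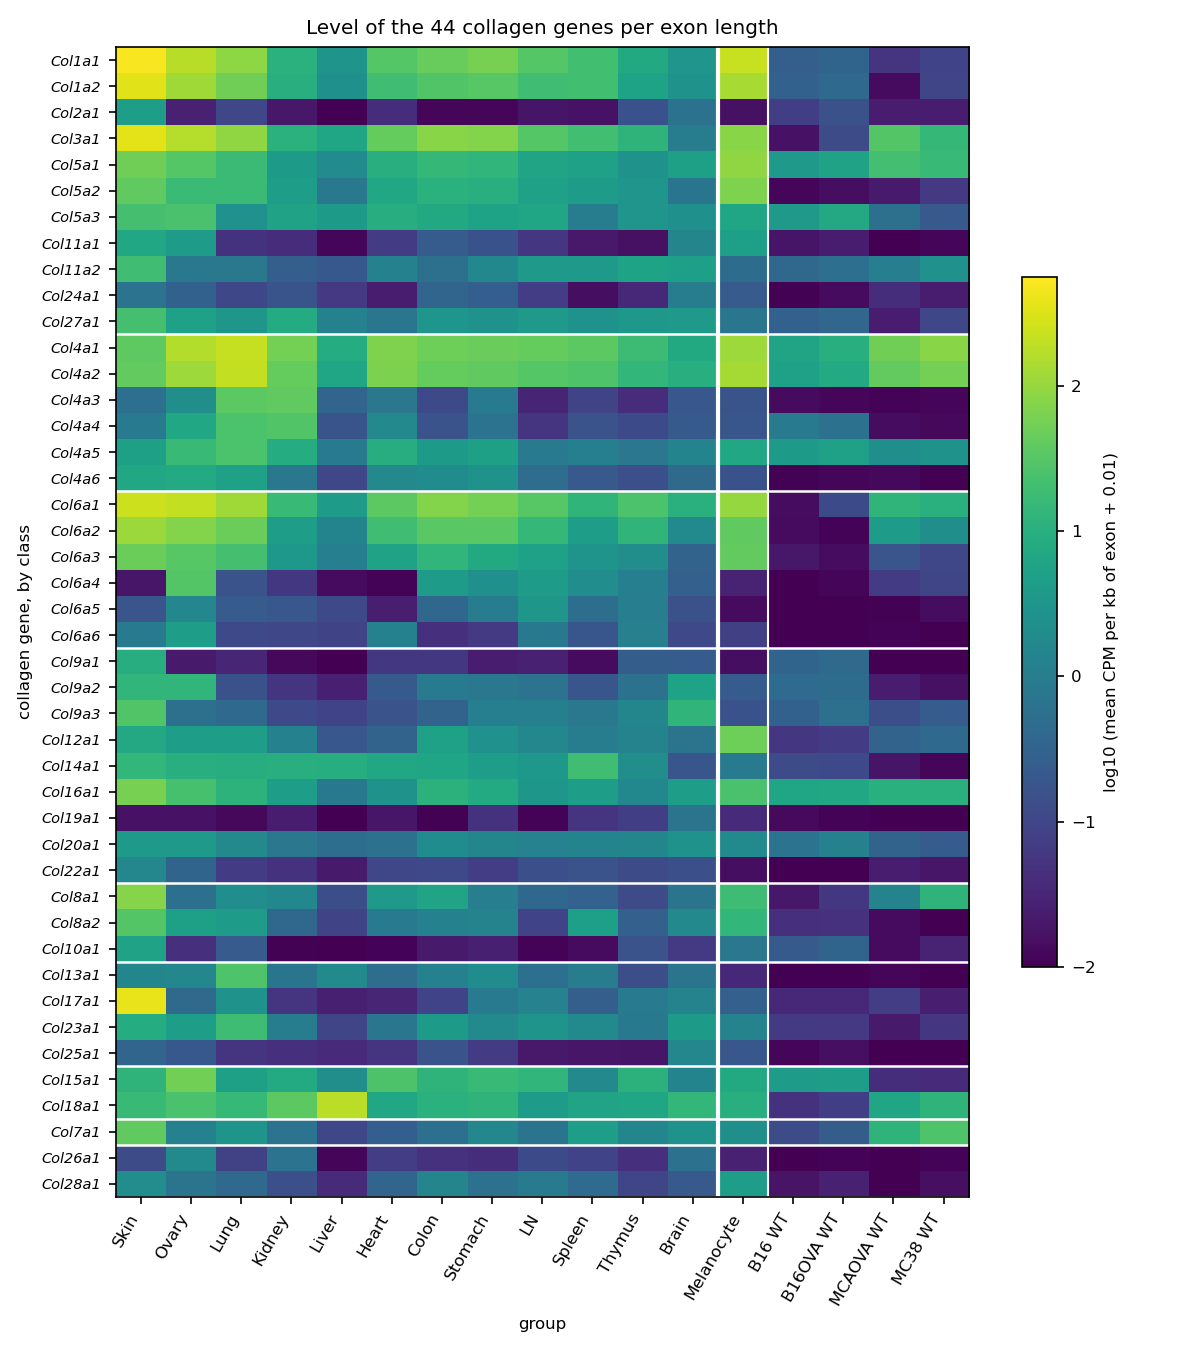
Mean level of the 44 collagen genes (rows) in 12 tissues, melanocytes and the WT libraries of the 4 tumour lines (columns), as log10 of CPM per kilobase of exon plus 0.01. Skin holds the highest mean in 20 of the 44 rows, ovary in 7, lung in 5 and melanocytes in 4. The 4 are Col5a1, Col5a2, Col12a1 and Col28a1. For Col5a1, Col5a2 and Col12a1 the melanocyte mean rests largely on library 1, which lies far above every other melanocyte library. Their rank without that library was not tested. Col18a1 is highest in liver (183 CPM per kb), and Col4a3 and Col4a4 are highest in kidney, followed by lung.

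Several pairs of chains that assemble into 1 protein ran in parallel across tissues, as did some chains that do not. Over the 12 tissue means, Pearson r on the log2 scale was 0.995 for Col1a1 with Col1a2, 0.983 for Col4a1 with Col4a2, 0.978 for Col6a1 with Col6a2, 0.969 for Col4a3 with Col4a4, 0.877 for Col5a1 with Col5a2, 0.860 for Col4a5 with Col4a6, 0.778 for Col9a2 with Col9a3, 0.647 for Col8a1 with Col8a2 and 0.399 for Col11a1 with Col11a2. Among chains of different proteins it was 0.952 for Col1a1 with Col3a1, 0.936 for Col1a2 with Col3a1, 0.921 for Col1a2 with Col6a1, 0.709 for Col1a2 with Col4a1 and 0.580 for Col4a3 with Col4a1. These are descriptions across tissues whose libraries differ in depth and cell makeup, and the chains of a pair are measured in the same libraries. The part of depth and cell makeup in these r values was not tested. The Col4a1 to Col4a2 ratio per kilobase stayed within 0.81 (brain) and 1.40 (ovary) over the tissues, and was 1.40 ± 0.08 in the WT libraries labelled MC38 and 0.87 ± 0.09 in melanocytes. The Col1a1 to Col1a2 ratio ran from 0.99 in spleen to 1.77 in stomach. Which of the 2 is higher depends on the length used, since the annotated exons of Col1a2 sum to 12426 bases and its coding sequence to 4116: on coding length the same ratios were 0.49 and 0.88. Other partners were less bound to each other. Type IX chains were at a Col9a2 to Col9a3 ratio of 23.3 ± 10.5 in ovary and 0.22 ± 0.05 in spleen. The Col11a1 to Col11a2 ratio was 5.57 ± 3.18 in ovary, 9.74 ± 3.53 in melanocytes and 0.37 in skin. In the libraries labelled MC38 and in those of the MCA101 line some partners were nearly missing. Col5a1 exceeded Col5a2 with a ratio of 344.1 ± 99.1 in the WT libraries labelled MC38 and of 514 in a single library named MCA101. Col6a3 stood at 0.01 of Col6a1 in WT of both MCAOVA and the libraries labelled MC38 and at 0.02 in the library named MCA101, against 0.04 (brain) to 0.28 (liver) in tissues and 0.35 ± 0.06 in melanocytes. The single libraries named MC38, MC38-OVA and MC38-GFP, outside the fits, had Col5a1 to Col5a2 ratios of 0.28, 0.87 and 0.69. Their Col6a3 to Col6a1 ratios were 1.24, 0.16 and 1.43, so that of MC38-OVA lay within the range of the tissues.

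**Figure D5:**
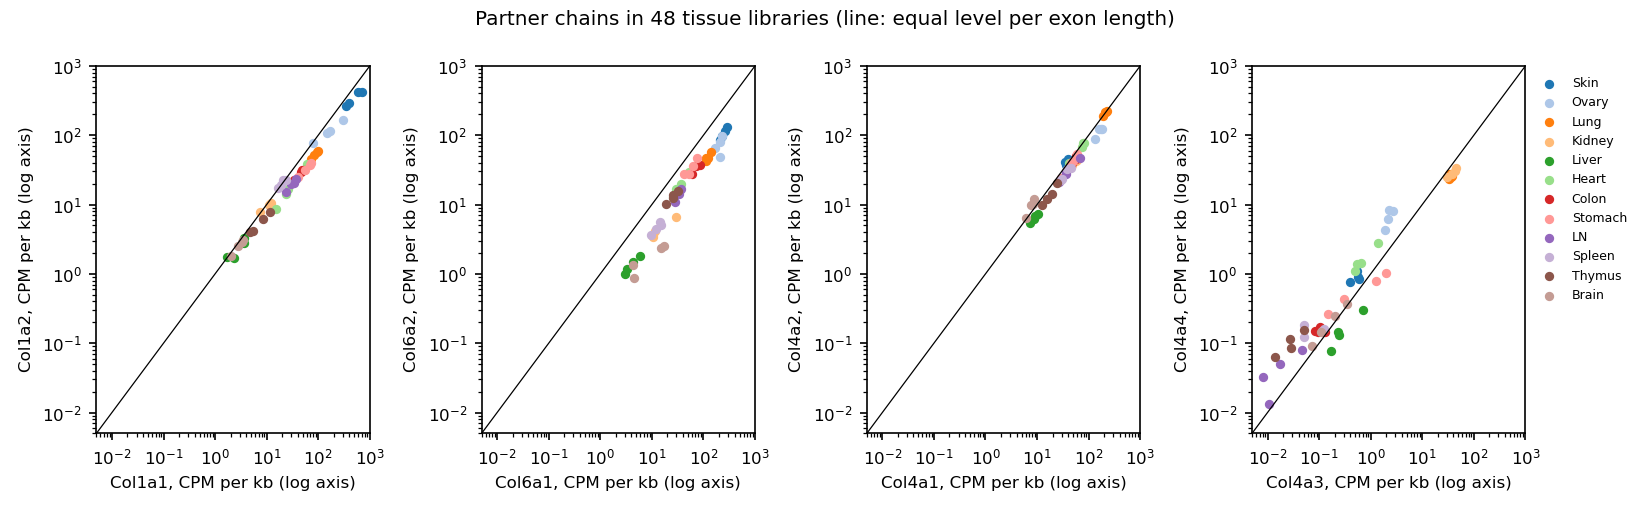
Level of 1 partner chain against the other (CPM per kilobase of exon, log axes) in the 48 tissue libraries, coloured by tissue, for 4 pairs; the line marks equal levels. Col1a1 and Col1a2, Col6a1 and Col6a2, and Col4a1 and Col4a2 rise together across tissues, and Col4a3 and Col4a4 lie apart from the other tissues in kidney and lung, at 23.7 to 44.9 CPM per kb.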

How the data were processed

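The authors deposited raw counts per gene, made from poly(A) libraries with a stranded kit per the labels' protocols and with Trim Galore, STAR and HTSeq on mm10 per the submitters' processing notes. Their versions, the annotation and the strand option were not stated in the sources used here. Ensembl IDs were matched to GENCODE vM21, also mm10, and 53274 of 53379 had a symbol. From the counts, edgeR 4.0.16 (R 4.3.3) quasi-likelihood fits with TMM scaling, filterByExpr and Benjamini-Hochberg adjustment over all tested genes were computed, with group and the code in the library names as terms. There were 3 fits: 45 tumour libraries (16809 genes, 31 residual degrees of freedom), 20 WT line and melanocyte libraries (16929 genes, 13) and 48 tissue libraries (26242 genes, 35). Calls had an adjusted p under 0.05. CPM used all gene counts of a library, and CPM per kb the summed exon length. Ratios of chains used libraries with at least 10 counts of both. No 2 of 154 pairs of libraries within groups were identical.

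Library codes and numbers formed sets (B253, 2 within B262, and D176). KO and Ctrl libraries of the same set deviated together from their group means in B16 (3 of 3 pairs with r over 0.1, 0.511 to 0.749), B16OVA (12 of 12, 0.431 to 0.712) and MCAOVA (3 of 3, 0.295 to 0.618), so the set was used as a replicate block in an alternative. The libraries labelled MC38 form 1 set.

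The members and lists were chosen with earlier results of these data known. Named with values were members and list genes called in a Setdb1 contrast, partner chains, and Setdb1. Only a part of the members called between lines or in 1 tissue were given values. The same holds for the 3 members of highest level per length in each group, and the heat map shows all members in tissues, melanocytes and WT lines. Genes flanking Col1a1 and Col1a2 were named without values, and list genes called between lines were not listed. Col18a1 neighbours, Col3a1, Col5a1, Col6a1, Col7a1, Col15a1 and Col17a1 were added after their values were seen. Scripts were tested on simulated counts.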

Additional observations from a re-analysis of the deposited data

Results flagged for a closer look

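The KO effect on type I collagen differed between lines by the interaction test: for Col1a1 by 3.79 (log2) between the libraries labelled MC38 and B16 and by 3.02 between them and B16OVA, and for Col1a2 by 4.41 between them and B16OVA. In all 3 the same MC38-labelled libraries enter, in which Setdb1 in KO (60.05, 85.3 and 74.1 CPM) lay below WT (115, 121 and 133 CPM) and below Ctrl libraries 2 and 3 (123 and 125 CPM) but above Ctrl library 1 (54.9 CPM, a library whose counts fell with transcript length).

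Melanocyte library 1 lay far above the 4 others for Col1a1 (5879 CPM), Col1a2 (6739 CPM), Col3a1 (3251 CPM), Col4a1 (2159 CPM), Col4a2 (1980 CPM) and Col18a1 (183 CPM), by a gap that Dixon's test puts past its 95% critical value. The same library held the highest fibroblast and smooth muscle marker sums and the lowest melanocyte marker sum of the 5, and the part of those cells was not tested. By the same test B16OVA WT library 2 was high for Col18a1 (0.948 CPM), and it is 1 of the libraries whose counts fell with transcript length. Skin library 4 was high for Col2a1 (71.7 CPM, the type II chain of cartilage). Chance flags about 1 in 20 groups so tested.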

How the results depend on the processing

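Of the log2 folds named in the Setdb1 contrasts, none changed direction under any alternative: RLE scaling, no or a stricter low-count filter, DESeq2, no library-code term, library sets as a replicate block, the line's KO and Ctrl libraries alone, WT in place of or with Ctrl, low-slope libraries left out, slope as a covariate, and each library left out. Col1a1 in the libraries labelled MC38 ran from 3.08 to 3.91 and passed in 10 of 11 settings, Col1a2 from 2.95 to 5.65 in 9 of 11, and Col18a1 in B16OVA from 1.73 to 2.61 in 11 of 11. RLE scaling and DESeq2 shifted the median of all genes by less than 0.1 in each line.

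Counts of members that moved by more than 1.5 times were as follows, and the cause was not tested unless stated. For KO over Ctrl in the libraries labelled MC38, 1 member in place of 2 was called without the library-code term (Col1a2, adjusted p = 0.076), 0 with the 6 libraries alone, which holds fewer samples, and 1 to 2 with single libraries left out. In B16OVA 3 were called without a low-count filter (Col3a1 and Col6a1 added) and 2 with the replicate block; the block changed no other call but that of Col1a2 against B16. For Ctrl over WT without the filter, 2 members were lower in B16OVA (Col3a1 and Col6a1) and 1 was higher in the libraries labelled MC38 (Col1a2, log2 fold 2.15, adjusted p = 0.016). For the KO effect in the libraries labelled MC38 against B16, 2 in place of 1 were called (Col1a2 added) without the filter, with DESeq2, with the replicate block and without the low-slope libraries. Against B16OVA 1 member was lower without the filter (Col18a1), and 0 to 2 were higher with single libraries left out. B16OVA over melanocytes gave 5 higher in place of 3 with DESeq2 and 2 to 6 with single libraries left out.

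In tissues 41 to 44 members were called highest in 1 tissue over the alternatives. Coding length in place of exon length moved 107 of 185 partner ratios beyond the replicate SD, and 30 crossed 1. The WT alternatives that leave 2 libraries in a group assume that these vary like the other groups. Depth limits what can be seen of members under 1 CPM, since 16 to 20 of 44 reached that mean in the WT groups of the 4 lines. After the data were seen, the same alternatives were run for Setdb1 in the libraries labelled MC38 (log2 fold -0.80 to -0.50, lowest adjusted p 0.097) and for Col18a1 in B16 (0.92 to 1.77, lowest adjusted p 0.19), and neither passed in any of 11, nor with any 1 library left out.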
